A study of Homo sapiens with 9 samples.

Results

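RAD21-alone sites are the RAD21 peaks of wild-type HEC-1-B cells that shared not even 1 bp with a CTCF peak or a ZNF143 peak of the same cells. They numbered 7695 of the 48906 wild-type RAD21 peaks on chromosomes 1 to 22 and X, or 15.7% of that list, and all peaks of the 9 deposited lists came to 354101. The members were chosen by the absence of a called peak, so that "alone" describes the peak lists and not an absence of protein. HEC-1-B is a human uterine adenocarcinoma line. The assay was ChIP-nexus, an immunoprecipitation of crosslinked chromatin in which exonucleases trim the recovered DNA towards the bound protein, which narrows the position of each site.

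Wild-type, ZNF143KO and CTCF-AID cells were profiled, all of them HEC-1-B or lines derived from it. Wild-type cells gave a library for each of RAD21, CTCF and ZNF143, and ZNF143KO cells, in which ZNF143 is labelled as knocked out, gave libraries for RAD21 and CTCF. CTCF-AID cells, in which CTCF carries an auxin-inducible degron, gave a CTCF library and a ZNF143 library at each of 0 h and 24 h of the auxin IAA. The labels' protocol places such degradation in cells that express TiR1, the receptor through which auxin acts on the degron. The labels did not say whether a derived line was 1 clone. ZNF143 occupancy in the knockout line was not analysed here, and its genotype rests on the label. Each group had 1 library. No difference between conditions below therefore has a replicate check or a significance test, and the 95% intervals in parentheses cover counting error over peaks only.

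RAD21 is the kleisin subunit that closes the ring of cohesin, the complex that holds sister chromatids together and extrudes chromatin loops in interphase. CTCF is a zinc-finger protein that binds a long DNA motif and halts extruding cohesin, so that most strong cohesin sites in mammalian cells lie at CTCF sites. Cohesin without CTCF has been described at active enhancers and promoters, near its loader NIPBL and Mediator. ZNF143 is a zinc-finger transcription factor that binds many promoters and has often been found near CTCF and cohesin peaks. The genes at the sites and their DNA sequence were not analysed here, since the reference tables at hand were on another genome build than the peak lists.

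Depth differed between the lists. A background density was worked out from the deposited values, as described with the processing, and it came to 7.82 reads per kb in the wild-type RAD21 library and 8.64 in wild-type CTCF. It was 26.15 in knockout RAD21 and 18.9 in knockout CTCF, which is 3.34 and 2.19 times the wild-type densities. Both knockout lists began at a −log10 q of 5.00 and the wild-type lists at 3.002 to 3.02, so that the knockout lists were deeper and also more strictly filtered.

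RAD21-alone peaks were weak and narrow. Their median signal, the authors' fold enrichment at the summit, was 6.58 (quartiles 5.55 and 7.78), and single peaks ranged from 2.83 to 22.96. RAD21 peaks at a CTCF peak without ZNF143 (14433 peaks) had a median of 9.67, with quartiles of 6.91 and 13.7. Those at both CTCF and ZNF143 (26083 peaks) had a median of 20.0, with quartiles of 15.0 and 23.2. The 695 RAD21 peaks at a ZNF143 peak without CTCF were as weak as the RAD21-alone peaks, with a median of 6.42 and quartiles of 5.41 and 7.70. The upper quartile of RAD21-alone peaks thus lay below the median of the CTCF class and far below the lower quartile of the class with both factors.

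The reads behind these peaks were few. The summit count of a RAD21-alone peak had a median of 7 reads (quartiles 6 and 9), against 11 in the CTCF class and 29 in the class with both factors. Median width was 41 bp (quartiles 26 and 61) against 74 bp and 141 bp in these classes, and 33.3% (32.2 to 34.3) of RAD21-alone peaks were at most 30 bp wide, close to the shortest peak of the list at 21 bp. In the CTCF class 10.4% (9.88 to 10.9) were that narrow. Low counts and narrow peaks were shared by the class with ZNF143 without CTCF. Its medians were 7 reads and 35 bp, and 40.4% (36.8 to 44.2) of its peaks were at most 30 bp wide. A −log10 q under 5, below the lowest value of the knockout lists, was found at 25.03% (24.1 to 26.0) of RAD21-alone peaks. The lower quartile of −log10 q was 4.99 for them, 5.03 in the class with ZNF143 without CTCF and 9.61 over all wild-type RAD21 peaks.

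**Figure D1:**
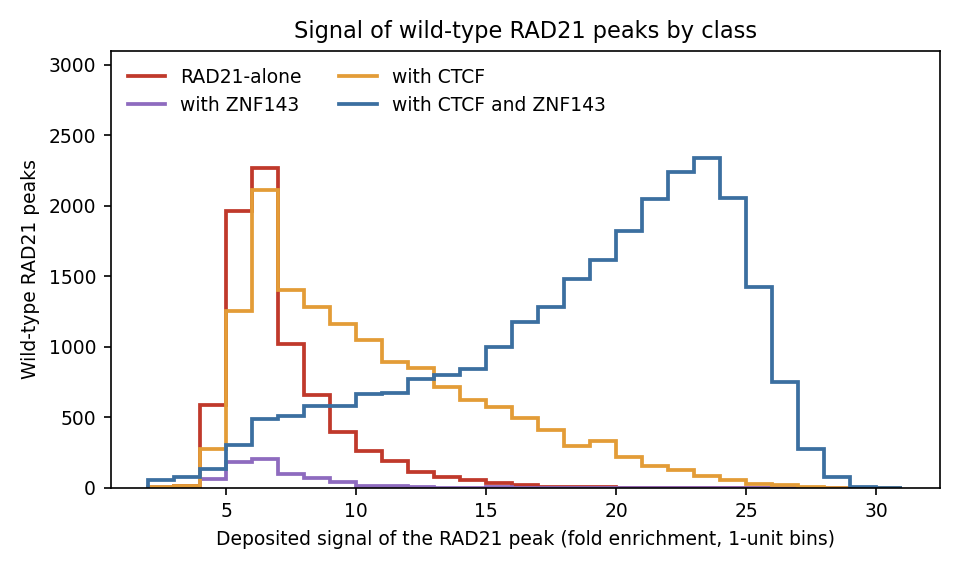
Number of wild-type RAD21 peaks (vertical axis) by deposited signal in bins of 1 unit (horizontal axis), with 1 line for each of the 4 classes. RAD21-alone peaks pile up around their median of 6.58, whereas peaks with both CTCF and ZNF143 spread widely around a median of 20.0 and are most frequent above it.

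When all wild-type RAD21 peaks were ranked by signal and cut into 10 equal groups, with ties broken by genome position, 81.9% (81.0 to 82.7) of RAD21-alone peaks fell in the 3 weakest. They made up 52.1% (50.7 to 53.5) of all RAD21 peaks in group 1, whose signal reached up to 5.99. Their share fell through 45.0% in group 2, 31.7% in group 3, 17.8% in group 4 and 7.71% in group 5 to 2.54% in group 6. Groups 7 to 9 held 22, 2 and 1 of them and group 10 none, although all of those groups had at least 4890 RAD21 peaks. RAD21 peaks without a called partner were thus mainly a feature of the weak end of the list. This was not particular to them, as 86.2% (83.4 to 88.7) of the class with ZNF143 without CTCF fell in the 3 weakest groups.

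Each of the 5 strongest RAD21-alone peaks was found again in the knockout. The first lay at positions 40327722 to 40327835 of chromosome X (hg19), with a signal of 22.96 and 29 reads at the summit in wild type. Its knockout RAD21 peak had a signal of 20.1, and a knockout CTCF peak with a signal of 17.2 had its summit 1 bp from the wild-type RAD21 summit. The nearest wild-type CTCF summit was 28443 bp away and the nearest ZNF143 summit 2427 bp. The next strongest, at 216690 to 216774 of chromosome 20, had a signal of 21.7 in wild type, 19.2 in knockout RAD21 and 12.6 in knockout CTCF.

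The third by signal lay at 22033269 to 22033315 of chromosome 17. Its signal was 19.7 in wild type and 18.1 in knockout RAD21, and its knockout CTCF peak, with a signal of 20.3, had its summit 5 bp away. The peak at 104603062 to 104603115 of chromosome 10 had signals of 19.5 and 17.1 in wild-type and knockout RAD21 and its knockout CTCF peak a signal of 8.83. The fifth, at 106346323 to 106346460 of chromosome X, had 19.3 and 16.4 for RAD21 and 18.7 for knockout CTCF. None of the 5 overlapped a CTCF or ZNF143 peak of the CTCF-AID lists, so that for all of them the knockout CTCF list was the only one of the 5 other CTCF and ZNF143 lists with a peak there. The first 3 of them are therefore also the strongest RAD21-alone peaks with a knockout CTCF peak.

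RAD21-alone summits were mostly far from wild-type CTCF summits. The median distance to the nearest one was 14883 bp, with quartiles of 5640 and 36890 bp. A CTCF summit lay within 200 bp of 3.81% (3.39 to 4.26) of the members, within 1 kb of 9.97% (9.31 to 10.7), within 10 kb of 38.5% (37.4 to 39.6) and within 100 kb of 94.0% (93.5 to 94.6). Short distances were thinned by the rule itself, since a RAD21 peak overlapping the CTCF peak was not a member. ZNF143 summits were farther still, at a median of 23646 bp, in a list of fewer peaks. The distance to the next RAD21 summit of any class had a median of 15495 bp against 16428 bp in the CTCF class and 13112 bp in the class with both factors. The rule did not use this distance, but it is tied to the distance to CTCF. Of all wild-type RAD21 peaks, 53.3% lay at both CTCF and ZNF143 and 29.5% at CTCF without ZNF143. Another RAD21 summit lay within 1 kb of 11.03% (10.3 to 11.8) of RAD21-alone peaks. This share was 5.79% (5.42 to 6.19) in the CTCF class and 7.55% (7.23 to 7.87) in the class with both factors. In the class with ZNF143 without CTCF it was 17.7% (14.9 to 20.7). A pair within 1 kb counts at both of its peaks, and 385 members had another RAD21-alone summit that close. These intervals, which treat peaks as independent, are therefore too narrow to compare the classes by.

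**Figure D2:**
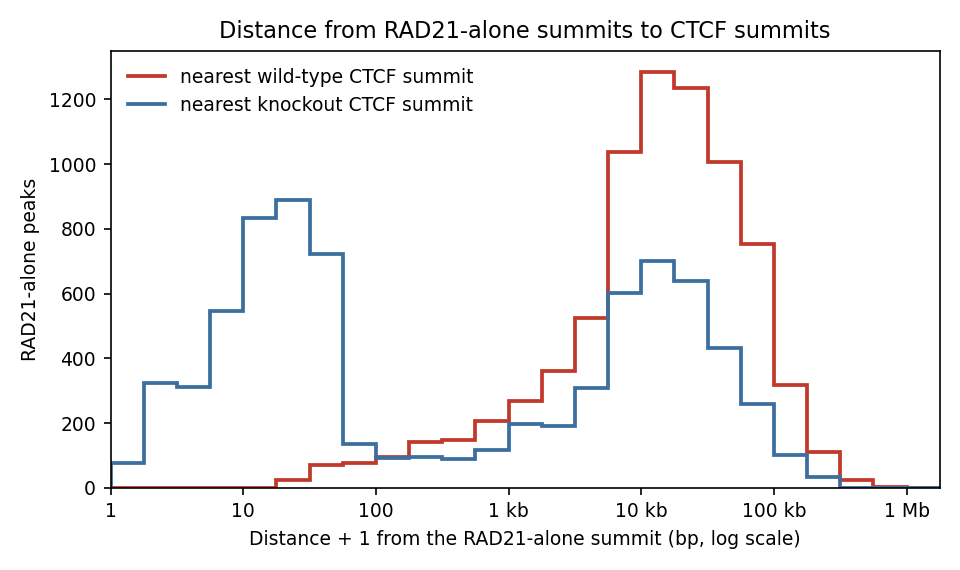
Number of RAD21-alone peaks (vertical axis) by distance from their summit to the nearest CTCF summit (horizontal axis, log scale of distance plus 1 bp), for the wild-type and the knockout CTCF lists. Wild-type distances form a single hump around the median of 14883 bp, whereas knockout distances have a further hump below 100 bp, from the 3738 members with a knockout CTCF peak.

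The member farthest from CTCF was found again in the knockout. Its summit, in the peak at 98105802 to 98105877 of chromosome X, was 1006824 bp from any wild-type CTCF summit, with a RAD21 signal of 16.9 for wild-type cells and 18.5 for knockout cells. A knockout CTCF peak with a signal of 18.3 had its summit 13 bp from it. The third farthest, at 98428159 to 98428207 of chromosome X and 684479 bp from CTCF, had signals of 6.87 in wild-type RAD21, 13.3 in knockout RAD21 and 18.6 in knockout CTCF. The second farthest, at 59091797 to 59091817 of chromosome 4 and 782720 bp from CTCF, had 5 reads at its summit, a signal of 5.15 and no peak in any other list.

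At the edge of the rule, 11 members touched a CTCF or ZNF143 peak without sharing a base pair, and 4.57% (4.12 to 5.07) had an edge within 100 bp of one. Of the touching members, the peak at 40555404 to 40555519 of chromosome 3 had a RAD21 signal of 18.1 and a CTCF summit 39 bp from its own, and the one at 49518156 to 49518178 of chromosome 10 a signal of 9.22 and a CTCF summit 23 bp away. Just outside the rule, the RAD21 peak covering 84101662 to 84101682 of chromosome 11 had a signal of 6.87 and shared 1 bp with a CTCF peak whose summit was 22 bp away. Another, covering 123374705 to 123374725 of chromosome 9, had a signal of 6.65 and a CTCF summit 32 bp away, again with 1 bp shared. In these 4 peaks the distance to CTCF was alike on either side of the rule.

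The knockout RAD21 list was then used to ask which RAD21-alone sites are found again in cells labelled as lacking ZNF143. Of the 7695 members, 5117 overlapped a knockout RAD21 peak, a share of 66.5% (65.4 to 67.6). Over all wild-type RAD21 peaks this share was 92.3%. It was 95.2% (94.9 to 95.6) in the CTCF class and 99.1% (99.0 to 99.2) in the class with both factors. The difference from the CTCF class was -28.7 percentage points (-29.8 to -27.6). Peaks with ZNF143 but without CTCF were kept at 63.2% (59.5 to 66.8), and their difference from RAD21-alone peaks, 3.33 points (-0.330 to 7.13), did not exceed its counting error. With a reciprocal overlap of 50% in place of 1 bp, 43.4% of RAD21-alone peaks were kept. With the knockout RAD21 list held to the size of the wild-type list, 53.6% (52.4 to 54.7) were kept at 1 bp.

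Retention followed signal. Of the RAD21-alone peaks, 47.8% (45.8 to 49.7) were kept in signal group 1, 63.6% (61.5 to 65.6) in group 2, 77.2% (75.04 to 79.3) in group 3, 90.2% (88.0 to 92.1) in group 4, 98.7% (96.9 to 99.6) in group 5 and 98.4% (94.3 to 99.8) in group 6. All members of groups 7 to 9 were kept. At like signal the CTCF class was still kept more often, at 82.1% (80.0 to 84.0) in group 1, 88.0% (86.5 to 89.4) in group 2 and 94.1% (93.1 to 95.1) in group 3. The difference between these classes was -34.3 points (-37.0 to -31.5) in group 1, -16.9 points (-19.2 to -14.6) in group 3 and -1.16 points (-2.90 to -0.356) in group 5 and -1.61 points (-5.69 to -0.424) in group 6. The lower retention of RAD21-alone peaks was thus seen within each of groups 1 to 6 and was far smaller in groups 5 and 6 than in group 1.

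**Figure D3:**
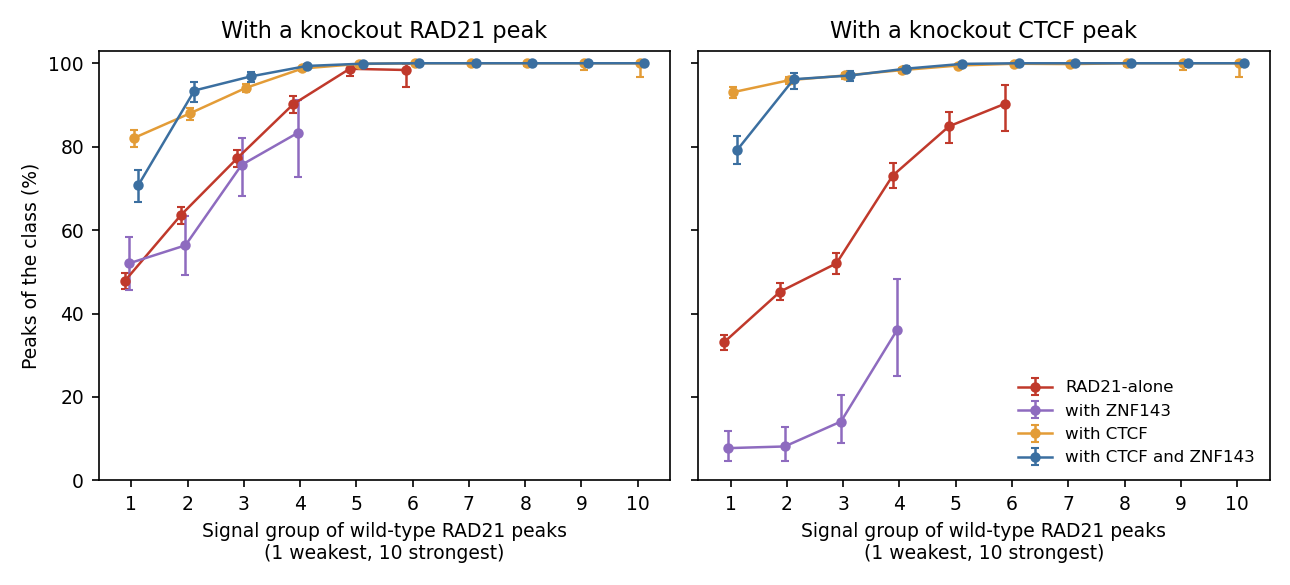
Share of wild-type RAD21 peaks with a knockout RAD21 peak (left) and with a knockout CTCF peak (right) by signal group (horizontal axis), with 1 line for each class and exact 95% binomial intervals, for classes with at least 50 peaks in the group. RAD21-alone peaks rise from 47.8% to 98.7% kept between groups 1 and 5, and from 33.1% to 84.9% with knockout CTCF, below both CTCF classes throughout.

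The kept sites were weak in the knockout as well. Their knockout RAD21 peaks had a median signal of 10.1 (quartiles 8.23 and 12.7) at the median percentile 29.9 of that list. Partner peaks of the CTCF class had a median of 13.7 at percentile 48.3. Positions were close, as the knockout summit lay a median of 10 bp from the wild-type summit at RAD21-alone sites and 9 bp in the CTCF class. The median summit count was 8 reads in wild type and 17 in the knockout at kept members. The commonest background density of the whole knockout RAD21 list was 3.34 times that of the wild-type list. Members that were not kept had a median of 6 reads in wild type, which is 20.05 when multiplied by the ratio of the RAD21 background densities. The lowest count called at the commonest background of the knockout RAD21 library was 8. The 6 reads come from peaks that had passed the wild-type cutoff, where the lowest such count was 4. The scaled value is therefore not a count to be awaited in the knockout. Why these members were not called there was not tested. By the ratio of the RAD21 background densities, the 17 reads of kept members in the knockout correspond to 5.09 in wild type. The highest count of a list, 42 in wild-type and 44 in knockout RAD21, was reached by 1.17% and 12.3% of their peaks. Counts near that highest value thus need not scale with depth. The knockout counts of kept members had quartiles of 14 and 22 reads, and why they did not scale with the densities was not tested. The ratio is also per kb, whereas the counts are taken over the shortest peak length, 21 bp and 22 bp in these lists.

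The strongest members missing from the knockout RAD21 list were of middling strength. The peak at 69685111 to 69685188 of chromosome 6 had a signal of 13.95 from 16 reads, that at 16916006 to 16916061 of chromosome 4 a signal of 13.7 from 18 reads, and that at 99911875 to 99911938 of chromosome 15 a signal of 11.9 from 13 reads. None of these sites overlapped a peak in any of the CTCF and ZNF143 lists.

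The deeper knockout CTCF list placed CTCF at many of the sites. A knockout CTCF peak overlapped 3738 RAD21-alone peaks, or 48.6% (47.5 to 49.7). Over all wild-type RAD21 peaks the share was 89.7%, and in the CTCF class it was 97.8% (97.6 to 98.0). Of the RAD21 peaks with ZNF143 but without CTCF, which were equally weak, only 13.2% (10.8 to 16.0) had a knockout CTCF peak, a difference of 35.3 points (32.4 to 37.9). Knockout CTCF was found at 30.8% of RAD21-alone peaks when a reciprocal overlap of 50% was required. With the knockout CTCF list held to the size of the wild-type list, the share at 1 bp was 32.6% (31.6 to 33.7).

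The share rose steeply with RAD21 signal. It was 33.1% (31.3 to 35.0) in group 1, 45.3% (43.2 to 47.4) in group 2, 52.0% (49.5 to 54.5) in group 3, 73.1% (70.0 to 76.0) in group 4, 84.9% (80.9 to 88.3) in group 5 and 90.3% (83.7 to 94.9) in group 6. Each of the 22, 2 and 1 RAD21-alone peaks in groups 7, 8 and 9 had one. The stronger a RAD21 peak without wild-type CTCF, the more often CTCF was called there in the knockout list. In the class with ZNF143 but no CTCF the shares in groups 1 to 3 were 7.72%, 8.12% and 14.1%, and the difference from RAD21-alone peaks was 25.4 points (20.95 to 28.7) in group 1 and 37.9 points (31.1 to 43.2) in group 3.

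The knockout CTCF peaks at these sites were from the weaker part of their list. Their median signal was 10.2 (quartiles 8.74 and 12.5), at the median percentile 23.9, whereas those at RAD21 peaks with wild-type CTCF had a median of 16.1 at percentile 49.7. They had a median of 16 reads at the summit, against 27 in the CTCF class. Divided by the ratio of the background densities of the CTCF libraries, 16 reads correspond to 7.31 in wild type. There the lowest count called at the commonest background was 5. The highest count of a list was reached by 0.255% of wild-type and 2.08% of knockout CTCF peaks, so that counts near it need not scale with depth. It was 50 reads in knockout CTCF, where the peaks at RAD21-alone sites had quartiles of 13 and 20 reads. The part of depth in the appearance of these CTCF peaks was not tested, and the ZNF143 knockout and the depth of its libraries cannot be told apart with 1 library each.

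RAD21 and CTCF summits at these sites were about as close as at sites with wild-type CTCF. The wild-type RAD21 summit lay a median of 14 bp (quartiles 6 and 27) from the nearest knockout CTCF summit, against 12 bp (5 and 24) in the CTCF class. In the CTCF class the distance to wild-type CTCF was also 14 bp (6 and 26). Of the summit pairs with knockout CTCF, 95.3% (94.6 to 96.0) at RAD21-alone peaks and 97.1% (96.8 to 97.4) in the CTCF class lay within 50 bp. Overlap was required in both classes, which alone keeps the summits of narrow peaks close.

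**Figure D4:**
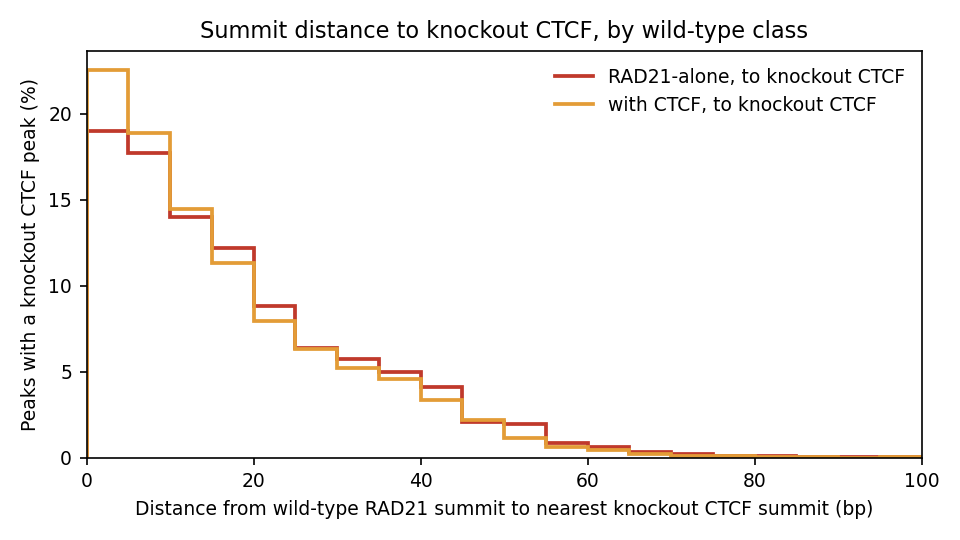
Share of peaks with a knockout CTCF peak (vertical axis) by distance from the wild-type RAD21 summit to the nearest knockout CTCF summit in bins of 5 bp (horizontal axis), for RAD21-alone peaks and for RAD21 peaks with wild-type CTCF. Both curves fall off from short distances, with medians of 14 bp for RAD21-alone peaks and 12 bp for the CTCF class.

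Seen from the knockout side, 13719 knockout CTCF peaks overlapped no wild-type CTCF peak, and 26.4% (25.6 to 27.1) of these lay at a RAD21-alone peak. Any wild-type RAD21 peak was found at 27.1% (26.4 to 27.8), so that nearly all of the overlap was with RAD21-alone peaks, as the rule would have it. Of the 49701 other knockout CTCF peaks, 0.231% (0.191 to 0.278) touched a RAD21-alone peak.

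Retention of RAD21 and presence of CTCF went together among the members. Of the 3738 with a knockout CTCF peak 88.1% kept RAD21, and of the 3957 without one 46.1% did, a difference of 42.0 points (40.1 to 43.8). The difference was present at like signal, with 76.2% against 33.7% in group 1 (42.4 points, 38.7 to 46.0), 85.1% against 45.9% in group 2 (39.2 points, 35.5 to 42.7), 91.6% against 61.6% in group 3 (29.9 points, 25.9 to 33.9) and 95.7% against 75.2% in group 4 (20.5 points, 15.1 to 26.6). It was 8.77 points (3.67 to 18.9) in group 5, where 57 members had no knockout CTCF peak, and 16.7 points (4.25 to 44.8) in group 6, where 12 had none. Both knockout libraries come from 1 line and were both deeper than their wild-type counterparts.

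The members fell into 4 sets by the knockout lists. Both knockout RAD21 and knockout CTCF were found at 3293 of them (42.8%, 41.7 to 43.9), with a median wild-type signal of 7.49 and width of 53 bp. Knockout RAD21 without knockout CTCF was found at 1824 (23.7%, 22.8 to 24.7), with a median signal of 6.62 and width of 41 bp. Knockout CTCF without RAD21 was found at 445 (5.78%, 5.27 to 6.33), with a median signal of 6.01 and width of 30 bp. Neither was found at 2133 (27.7%, 26.7 to 28.7), the weakest set, with a median signal of 5.95, a width of 29 bp and 6 reads at the summit.

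**Figure D5:**
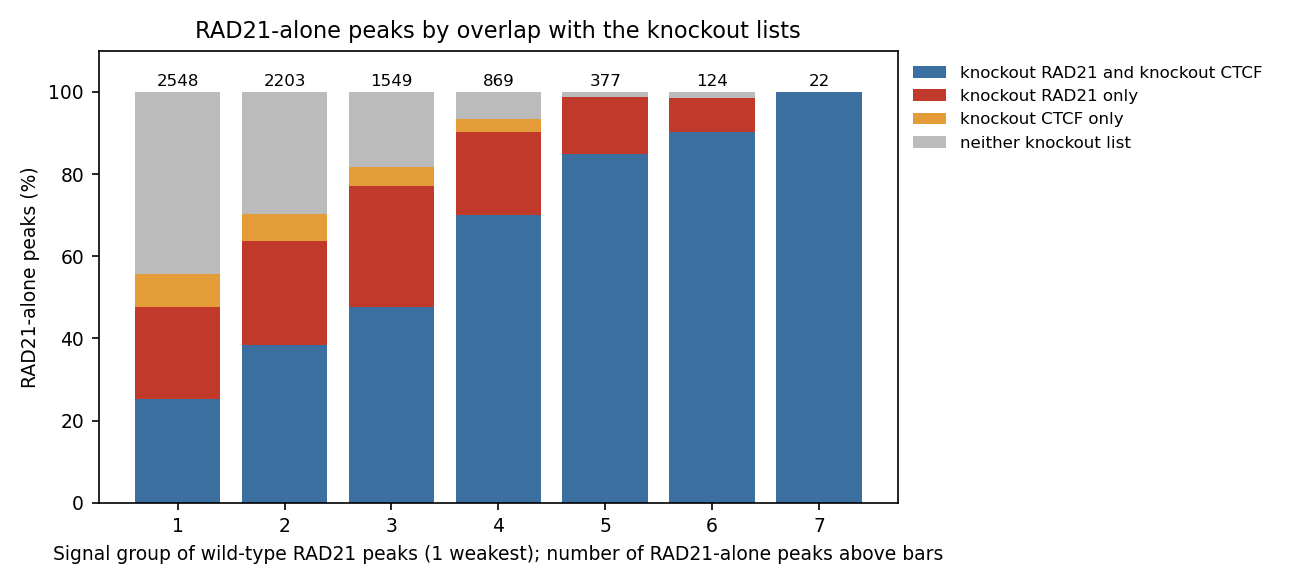
Share of RAD21-alone peaks (vertical axis) that overlapped both, either or neither of the knockout RAD21 and CTCF peaks, by signal group of the wild-type RAD21 list (horizontal axis), with the number of members above each bar, for groups with at least 10 members. The part with both grows with signal until it takes in all 22 members of group 7.

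The CTCF-AID lists, from another derived line, added few partners. At 0 h, CTCF peaks overlapped 330 RAD21-alone peaks, or 4.29% (3.85 to 4.77), while over all wild-type RAD21 peaks the share was 58.9%. At 24 h of auxin CTCF peaks overlapped 18 members, or 0.234% (0.139 to 0.369), against 27.7% over all RAD21 peaks. ZNF143 peaks of these cells overlapped 202 members at 0 h, or 2.63% (2.28 to 3.01), against 40.7% of all RAD21 peaks, and 132 members at 24 h, or 1.72% (1.44 to 2.03), against 13.9%. Background density in the CTCF library at 0 h was 12.8 reads per kb, between those of wild-type and knockout CTCF, and its list of 30374 peaks was shorter than either. Members with a knockout CTCF peak had a 0 h CTCF peak in 6.61% (5.83 to 7.45) of cases and those without in 2.098% (1.67 to 2.59).

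No partner was found in any list at 3690 members, or 48.0% (46.8 to 49.1), against 8.17% of all wild-type RAD21 peaks. A further 3645 members had a peak in exactly 1 of the 5 other CTCF and ZNF143 lists, 319 in 2 of them, 28 in 3, 12 in 4 and 1 in all 5. The share without any partner fell from 62.4% (60.5 to 64.3) in signal group 1 to 14.3% (10.9 to 18.3) in group 5. In this partner-free set, 45.6% were kept in knockout RAD21 against 85.7% of the other members, a difference of -40.1 points (-42.0 to -38.1). The 4005 other members include all 3738 with a knockout CTCF peak, so that this largely repeats the contrast by knockout CTCF given above. It was not computed at like signal.

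RAD21 was called in both genotypes at 1684 members without a partner in any list, or 21.9% (20.96 to 22.8) of the members. These had a median signal of 6.62 and a median distance to the nearest wild-type CTCF summit of 15148 bp, close to that of the members as a whole. The 2006 partner-free members that were not kept had a median signal of 5.95 and a median width of 29 bp. The 3 strongest partner-free members were all kept. The peak at 90736101 to 90736193 of chromosome 7 had a RAD21 signal of 16.6 in wild type and 12.6 in the knockout, with both summits at the same position. The peak at 38663400 to 38663469 of chromosome 9 had signals of 16.4 and 13.3, and that at 11616712 to 11616756 of chromosome 8 had 15.4 and 15.9. The nearest wild-type CTCF summits were 17286, 9091 and 6395 bp away.

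In the knockout itself, 7206 of the 56861 RAD21 peaks, or 12.7% (12.4 to 12.9), overlapped no knockout CTCF peak. Of these, 23.7% (22.7 to 24.7) lay at a wild-type RAD21-alone peak and 32.4% (31.3 to 33.5) at any wild-type RAD21 peak. A wild-type CTCF peak was found at 8.01% (7.39 to 8.66) of them.

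Retention changed little with distance to wild-type CTCF up to 100 kb and was higher beyond it. RAD21 was kept at 62.8% (57.0 to 68.3) of the 293 members with a wild-type CTCF summit within 200 bp, at 62.2% (57.7 to 66.6) of the 474 between 200 bp and 1 kb, at 66.1% (64.1 to 68.1) of the 2192 members between 1 kb and 10 kb from one, and at 66.5% (65.1 to 67.9) of the 4278 between 10 kb and 100 kb. Beyond 100 kb it was kept at 74.7% (70.4 to 78.6) of 458 members. The corresponding shares with knockout CTCF were 50.5% (44.6 to 56.4), 43.04% (38.5 to 47.6), 48.0% (45.9 to 50.2), 48.7% (47.2 to 50.2) and 54.8% (50.1 to 59.4). The nearest members were the narrowest, with a median width of 25 bp within 200 bp of a CTCF summit against 42 bp or 43 bp beyond 1 kb.

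RAD21-alone peaks were found on every chromosome, as 11.5% (10.0 to 13.1) of RAD21 peaks on chromosome 19 at the low end and 18.6% (15.6 to 21.9) on chromosome 21 at the high end. They occupied 2505 bins of 1 Mb, with a median of 3 per occupied bin. Crowding was limited to 44 bins with 10 or more, which held 488 members. The fullest bin, 61000001 to 62000000 of chromosome 7, held 17 among 104 RAD21 peaks of all classes, and 2 of the 17 were kept in knockout RAD21. Its median background at the summits was 0.544 against 0.185 over all members. The bin at 42000001 to 43000000 of chromosome 10 held 13 members among 150 RAD21 peaks, and 3 of the members were kept. It had the highest median background of the 10 fullest bins, 5.07. Over the whole list 15.7% of RAD21 peaks were RAD21-alone, so that these 2 bins were crowded with RAD21 peaks in general. Other full bins kept more of their members, with 11 of 15 in the bin from 73000001 to 74000000 of chromosome 17. That bin had 62 RAD21 peaks and a median background of 0.325. All 12 were kept in the bin from 94000001 to 95000000 of chromosome 1, which had 38 RAD21 peaks and a median background of 0.687. Some full bins were rich in RAD21-alone peaks beside the 15.7% of the whole list. The bin from 59000001 to 60000000 of chromosome 1 held 14 members among 24 RAD21 peaks, with 7 kept and 0 with knockout CTCF. The bin from 235000001 to 236000000 of chromosome 1 held 12 among 26. That from 57000001 to 58000000 of chromosome 15 held 13 among 33.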

How the data were processed

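Peaks were called per sample, with 1 library in each of 9 groups taken from the sample titles. The submitters' processing notes name cutadapt 2.10, Bowtie2 2.3.5.1, SAMtools 1.12, MACS2 2.2.7.1 and deepTools, and the build hg19; settings, a control library and pooling are not given in the sources used here. The authors deposited for each peak a fold enrichment (a ratio, called signal here), −log10 p, −log10 q, a score that is 10 times −log10 q, and the summit position. Signals are the authors' and were ranked only within a list; where those of several lists stand side by side, they come from libraries of unequal depth and show no change.

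From these files, overlaps of at least 1 bp, distances between summits, exact Clopper-Pearson intervals for shares, Newcombe intervals for differences and order-statistic intervals for medians were computed, all at 95%. Signal groups are 10 equal groups of the wild-type RAD21 list. With 1 library per group no test between conditions was made. Summit counts and background were solved from the ratio and −log10 p under a Poisson model with 1 added to both count and background, as MACS2 is taken to do; whole counts gave back −log10 p within 0.002 for 100% of peaks. Background reads per kb are the commonest background divided by the shortest peak length, an assumed footprint. Peaks outside chromosomes 1 to 22 and X were left out. Coordinates are 1-based on hg19. Transcription starts and motifs were not analysed, as no hg19 annotation or genome was used here.

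Named peaks follow a rule: the 5 strongest members, the 3 strongest of each of 3 sets (not kept, without partner, with knockout CTCF), the 3 farthest from CTCF, and 2 on either side of the overlap threshold. The members and lists were chosen with earlier results of these data known. Computations used scipy 1.17.1, pandas 2.3.3 and numpy 2.4.6 under Python 3.11.15, and plots used matplotlib 3.10.9. Overlap and distance code was checked against all-pairs counts on 623 RAD21 peaks of chromosome 21, with 0 differences.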

Additional observations from a re-analysis of the deposited data

Results flagged for a closer look

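RAD21 peaks without a called partner also occurred on sequences outside the comparisons. They are listed because their numbers passed a limit of 3 set by a count of 0. That limit tests nothing here, as there was no reason to await a count of 0. Within the comparisons, 7695 of 48906 wild-type RAD21 peaks, or 15.7%, had no such partner. The share on chromosome Y was close to this and that on the other sequences was higher, and neither difference was tested. Of the wild-type RAD21 peaks mapped to chromosome Y, 35 of 221 overlapped no wild-type CTCF or ZNF143 peak, of which 25 overlapped a knockout RAD21 peak and 14 a knockout CTCF peak. On the mitochondrial and unplaced sequences, 70 of 310 did so, of which 34 overlapped a knockout RAD21 peak and 28 a knockout CTCF peak. Their median signals were 6.87 and 6.20, next to 6.58 for the RAD21-alone peaks of the report. HEC-1-B is of uterine origin, and whether the reads placed on chromosome Y belong there was not tested. The same holds for the mitochondrial and unplaced sequences. These peaks are therefore not counted as RAD21 sites here, and their overlap with knockout peaks does not show that they are.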

How the results depend on the processing

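The 8 main results were recomputed in 47 alternatives: 20 lay inside the 95% interval of the value reported, 27 outside it, and 0 had another sign. Causes were not tested unless stated. With wild-type RAD21 peaks of a −log10 q of at least 5, 12.7% were RAD21-alone, with a median signal of 6.95, width of 45 bp and distance to CTCF of 14095 bp; 72.9% were kept, 53.4% had knockout CTCF, 43.3% had no partner, and the difference in retention with against without knockout CTCF was 38.6 points. In the stronger 50% of the list, 149 peaks were RAD21-alone (0.609%), with 15.1, 94 bp and 16391 bp; 98.7% were kept, 91.9% had knockout CTCF, 8.05% had no partner, and the difference was 16.7 points. At least 100 bp from every CTCF and ZNF143 peak, the share was 15.0% and the distance 15838 bp; with no such summit within 200 bp they were 14.9% and 15933 bp, which the wider exclusion lengthens by construction. A reciprocal overlap of 50% gave 43.4% kept, 30.8% with knockout CTCF, 67.2% without partner and a difference of 44.3 points. Knockout lists held to the wild-type lists' sizes gave 53.6% kept and 32.6% with knockout CTCF. Without the 1 Mb bins of 10 or more members, an alternative chosen after the data were seen, the share was 15.3%, and the other 7 results stayed within their intervals. For the named peaks, 27 of 28 alternative overlaps with the knockout, also chosen after the data were seen, were as reported; the peak on chromosome 17 had no reciprocal overlap of 50%. The results on transcription starts and motifs were not run. No paired analysis was possible because each group had 1 library. The summits of members rest on a median of 7 reads, and the part of depth in these values was not tested.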
